A study of Mus musculus with 9 samples.

Results

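Loss of Esrp1 alone was examined in mouse epidermis by comparing embryos without working Esrp1 but with both Esrp2 alleles (KO, Esrp1-/-, Esrp2+/+) with wild type embryos (WT). The comparison rested on 5 of the 9 libraries of the study, 3 KO and 2 WT, each made from poly(A) RNA of the full-thickness epidermis of 1 embryo at embryonic stage E18.5. Of 38203 genes in the expression table, 12346 had a mean of at least 1 FPKM in KO or in WT and were tested. FPKM is the number of fragments from a gene scaled to the length of its transcripts and to the fragments mapped in the library, and differences are given on the scale of log2(FPKM + 1), KO minus WT, which understates the difference of genes with low FPKM.

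The KO allele lacks exons 7 to 9 of Esrp1, which were flanked by loxP sites in C57BL6/129Sv hybrid embryonic stem cells and removed in the germline by a Cre driven from the oocyte promoter Zp3, so that all tissues of the embryo, and not only the epidermis, carried the deletion. The embryos had a mixed C57BL6/129Sv background after back-crossing to the F4 generation. The remaining 4 libraries came from embryos without Esrp1 that kept 1 Esrp2 allele (KH, 2 libraries) or none (DKO, 2 libraries); they entered the fit to estimate the spread and are given beside KO where a result turns on them. The sample labels call the controls WT for both genes, but the extraction protocol lists control embryos as Esrp2-/-. Esrp2 was at 118 and 136 FPKM in the WT libraries and under 0.1 FPKM in both DKO libraries, and the libraries are called WT here.

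Esrp1 and Esrp2 are RNA-binding proteins of epithelial cells that bind near alternative exons and direct the epithelial splice forms of genes such as Fgfr2, Cd44, Ctnnd1 and Enah. The epidermis is built of a dividing basal layer and of spinous, granular and cornified layers of increasing differentiation, which form the skin barrier shortly before birth. Gene FPKM sums over the splice forms of a gene, so a switch between exons with an unchanged total leaves no mark in these values.

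The sequence that the KO allele loses is shown because it defines what could still be transcribed from it. In the principal Esrp1 transcript of GENCODE M21 (GRCm38, chromosome 4, minus strand), exon 7 spans chr4:11365374-11365484 (111 bases), exon 8 chr4:11365144-11365276 (133 bases) and exon 9 chr4:11365004-11365046 (43 bases), all of them coding. Together they hold 287 bases, which leaves 2 bases after whole codons. In the first line below, exon 8 is in capitals between exons 7 and 9. The second line joins the last 30 bases of exon 6 to exon 10, as the annotation would splice without the deleted exons, and ends at the first stop codon in the reading frame, in capitals, which lies within the first 13 bases of exon 10 and after 32% of the coding sequence.
Exons 7 to 9: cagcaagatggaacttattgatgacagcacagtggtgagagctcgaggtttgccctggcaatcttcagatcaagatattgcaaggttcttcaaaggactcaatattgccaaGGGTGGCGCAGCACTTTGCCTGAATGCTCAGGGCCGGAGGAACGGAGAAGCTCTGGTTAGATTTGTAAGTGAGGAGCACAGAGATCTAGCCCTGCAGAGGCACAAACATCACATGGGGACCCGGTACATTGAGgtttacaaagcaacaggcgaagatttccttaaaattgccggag
Exon 6 joined to exon 10: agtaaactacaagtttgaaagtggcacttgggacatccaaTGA

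The targeted gene was lower in every KO library. Esrp1 was at 29.8, 28.7 and 27.1 FPKM in the KO libraries and at 119 and 142 FPKM in the WT libraries, so the groups did not overlap and KO retained 21.9% of the WT mean. The deleted exons are 7.43% of the length of the principal transcript. KO embryos had no Esrp1 allele with these exons, so the fragments counted in KO came from RNA without them. A gene value alone does not show how the remaining exons were joined. The paper reports that mapped reads of the knockout samples join the exons on either side of the deletion. It takes the lower transcript level as a sign of nonsense-mediated decay. On the log2 scale the difference was -2.15 (SE 0.38), with an adjusted p of 0.372 by limma (Benjamini-Hochberg adjustment across the 12346 genes), which missed the threshold of 0.05. Over 20 other settings of the analysis the adjusted p for Esrp1 by limma ran from 0.0112 to 1, and it fell below 0.05 when only the KO and WT libraries were fitted (0.0259) or when either KH library was left out. KH libraries, at 18.2 and 55.1 FPKM, were the farthest apart of any genotype. Esrp2, the paralog with both alleles intact in KO, was at 88.1, 88.4 and 131 FPKM in KO and 118 and 136 FPKM in WT. The third KO library lay within the WT range and KO replicates 1 and 2 below it, and the difference of -0.33 (SE 0.34, limma adjusted p = 0.818) did not pass the test.

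Before the remaining results, the libraries themselves need description, since the KO libraries did not group together and the third KO library lay closest to WT. Across the 12346 genes, the median absolute difference from the WT mean was 0.327 and 0.337 on the log2 scale in KO replicates 1 and 2 but 0.116 in KO replicate 3. The WT libraries differed by a median of 0.179 from each other, not from their mean. The standard deviation of the log2 differences was 0.292 between KO replicate 3 and WT replicate 2 and 0.359 between KO replicate 3 and WT replicate 1, against 0.527 to 0.549 between any pair of KO libraries and 0.374 between the WT libraries. The library nearest to KO replicate 1 was KH replicate 1 (0.341) and the library nearest to KO replicate 2 was DKO replicate 1 (0.461), so no KO library had another KO library as its nearest. The Esrp1 level of KO replicate 3, 27.1 FPKM, was nevertheless that of the other KO libraries.

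**Figure D1:**
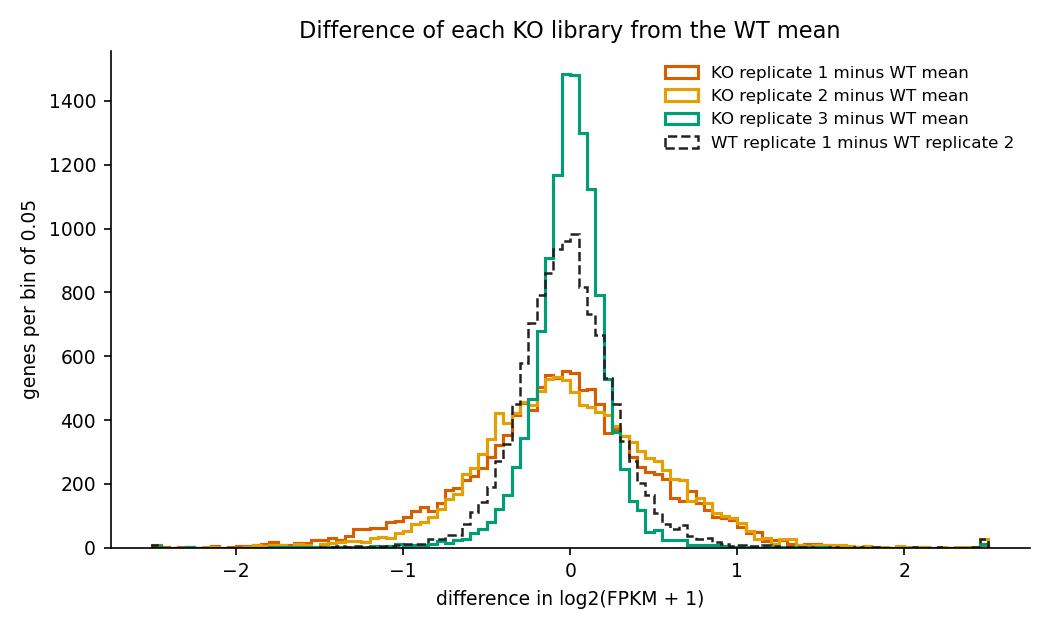
Histograms over the tested genes of the difference in log2(FPKM + 1) between each KO library and the WT mean (solid lines) and between the WT libraries (dashed line); values beyond the axis are in the end bins. KO replicate 3 has the narrowest curve, with a median absolute difference of 0.116, whereas KO replicates 1 and 2 spread to 0.327 and 0.337.

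The labelled tissue was borne out by its markers: the summed FPKM of the keratinocyte list was 34804, 54549 and 81015 in KO and 59061 and 73691 in WT. Endothelial markers summed to at most 4.38 FPKM and T cell markers to at most 37.1 FPKM in these libraries. Markers of red blood cells summed to 588, 361 and 108 FPKM in KO and 626 and 95.4 FPKM in WT and so varied within both groups. Xist, the RNA that silences an X chromosome in female cells, was at 180, 166 and 76.2 FPKM in KO, at 111 FPKM in WT replicate 2 and at 0.0019 FPKM in WT replicate 1, so all KO libraries and only 1 of the WT libraries had it. The KH and DKO libraries, which also entered the estimate of the spread, were all at or below 0.178 FPKM. The part of these differences in the results below was not tested beyond leaving out each library in turn. In bulk tissue, fewer cells of a type and less RNA per cell cannot be told apart.

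Over all genes, 1 of 12346 was called, that is, it had an adjusted p below 0.05 and more than a 2-fold difference in mean FPKM (0.0081% of the genes tested). That gene was Gadl1, which encodes a decarboxylase of acidic amino acids of the glutamate decarboxylase family. Gadl1 was at 8.81, 7.97 and 8.97 FPKM in KO and at 56.6 and 59.2 FPKM in WT. The KO libraries were within about 1 FPKM of each other and far below both WT libraries, and KO replicate 3 was no exception. The difference was -2.62 (SE 0.21), with an adjusted p of 0.00701 by limma, and the KO mean was 14.8% of the WT mean. In the other genotypes without Esrp1, Gadl1 was at 5.16 and 4.65 FPKM (KH) and at 11 and 6.69 FPKM (DKO), also below both WT libraries.

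Gadl1 was called in 17 of 21 other settings, and its difference stayed between -2.74 and -2.56 in all of them. It was not called with the replicate number as a block (limma adjusted p = 0.149) or without KO replicate 2 (0.0767), KO replicate 3 (0.0596) or WT replicate 1 (0.0734). Gadl1 lies on chromosome 9 (GRCm38, plus strand, chr9:115909455-116076176), and the last exon of one of its transcripts, exon 15 of Gadl1-202, shares 162 of its 314 bases with the processed pseudogene Gm9385 on the opposite strand. Gm9385 was at 1292, 1821 and 1275 FPKM in KO and at 1237 and 1190 FPKM in WT, a difference of 0.25 (limma adjusted p = 0.826), and its part in the Gadl1 values was not tested.

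**Figure D2:**
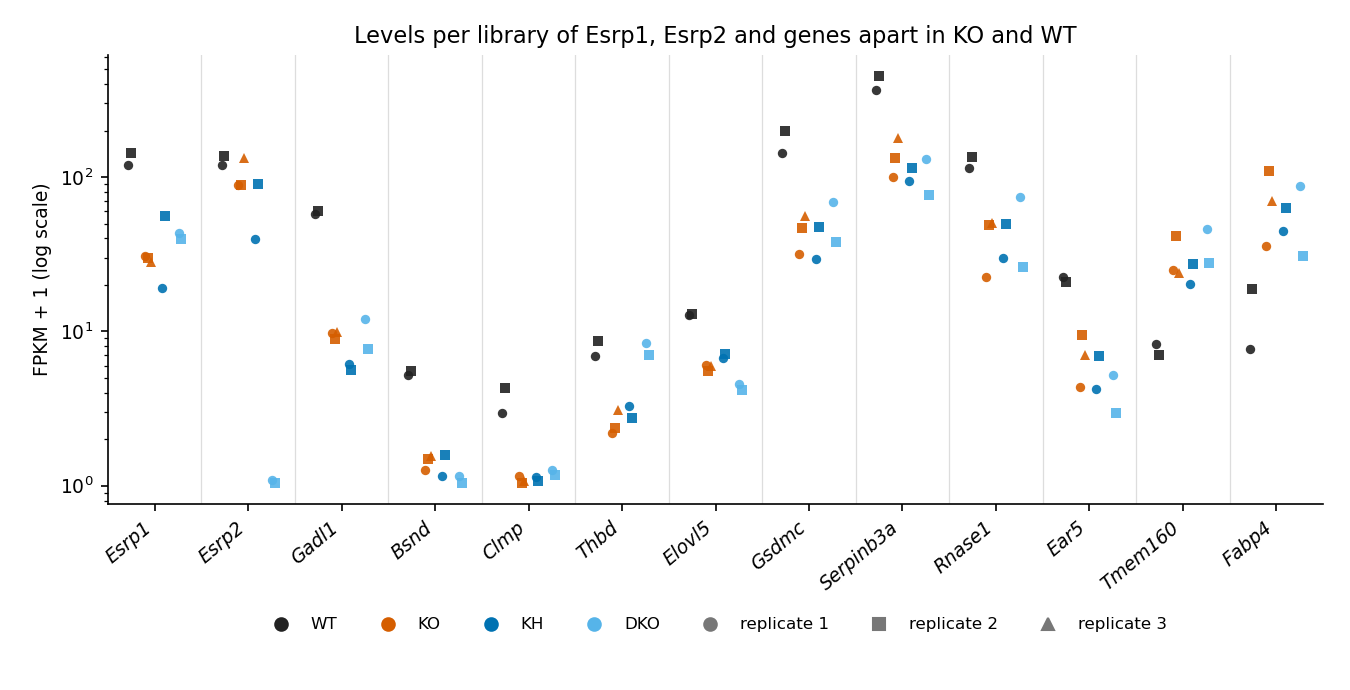
FPKM + 1 (log axis) of each gene in each of the 9 libraries, with the genotype as colour and the replicate as symbol. Gadl1 is near 8 to 9 FPKM in all KO libraries and at 56.6 and 59.2 FPKM in WT, whereas Esrp2 is lost in the DKO libraries alone.

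Several genes that missed the threshold were lower in every KO library than in WT. Bsnd, which encodes barttin, the accessory subunit of ClC-K chloride channels, was at 0.258, 0.479 and 0.548 FPKM in KO and at 4.25 and 4.57 FPKM in WT. Its difference was -1.93 (SE 0.22, limma adjusted p = 0.0639), and over the other settings its limma adjusted p ran from 0.00957 to 0.557, with a call in 9 of 21. Clmp, an adhesion molecule of the CXADR family found at cell junctions, was at 0.155, 0.0345 and 0.0765 FPKM in KO and at 1.94 and 3.30 FPKM in WT. The KO mean of Clmp was 3.38% of the WT mean, and its difference of -1.71 (SE 0.23, limma adjusted p = 0.138) was called in 4 of 21 settings. Both genes passed the filter of 1 FPKM through WT alone, the group in which they are higher, as did 206 of the tested genes, and 416 passed through KO alone. Both were also under 0.6 FPKM in every KH and DKO library. Bsnd, Clmp and some of the genes below were chosen after their values were seen.

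Thbd, the thrombin receptor thrombomodulin, was at 1.2, 1.37 and 2.09 FPKM in KO and at 5.88 and 7.71 FPKM in WT, with a difference of -1.61 (SE 0.22, limma adjusted p = 0.138). It was at 2.26 and 1.73 FPKM in KH and at 7.39 and 6.02 FPKM in DKO, so that the DKO libraries lay at the WT level. Elovl5, an elongase of polyunsaturated fatty acids, was at 5.04, 4.51 and 5.0 FPKM in KO and at 11.7 and 12 FPKM in WT, a difference of -1.13 (SE 0.16, limma adjusted p = 0.139). Its KO libraries were nearly equal, at 41.0% of the WT mean. Ptprz1, a receptor-type tyrosine phosphatase, was at 4.98, 2.83 and 4.17 FPKM in KO against 10.5 and 11.2 FPKM in WT (limma adjusted p = 0.27).

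An unadjusted limma p below 0.05 was found for 572 genes (4.63% of those tested), 282 higher and 290 lower in KO. A threshold of 0.05 would by itself pass about that share of genes without any difference. Since an exact test of 3 against 2 libraries cannot give a two-sided p below 0.2, genes were also counted without a test when all KO libraries lay on 1 side of both WT libraries and the means differed at least 1.5-fold; such genes are called separated. Separated genes numbered 611 higher (4.95%) and 524 lower (4.24%) in KO, 9.19% of the tested genes in all. Of the 611, 151 passed the filter of 1 FPKM through KO alone, and of the 524, 70 passed through WT alone, so that their direction was fixed by the filter. KO replicate 3 was the KO library nearest to WT in 505 of the 611 and in 389 of the 524. Without it, 0 genes were called by limma, 1783 genes (14.3%) had an unadjusted p below 0.05, and 1571 genes (12.6%) higher and 1585 genes (12.7%) lower were separated. Without WT replicate 1 the separated genes were 1425 higher (11.5%) and 1213 lower (9.82%). The shares were 4.25% higher and 3.53% lower without KO replicate 1, 5.47% and 4.51% without KO replicate 2, and 5.32% and 5.78% without WT replicate 2.

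**Figure D3:**
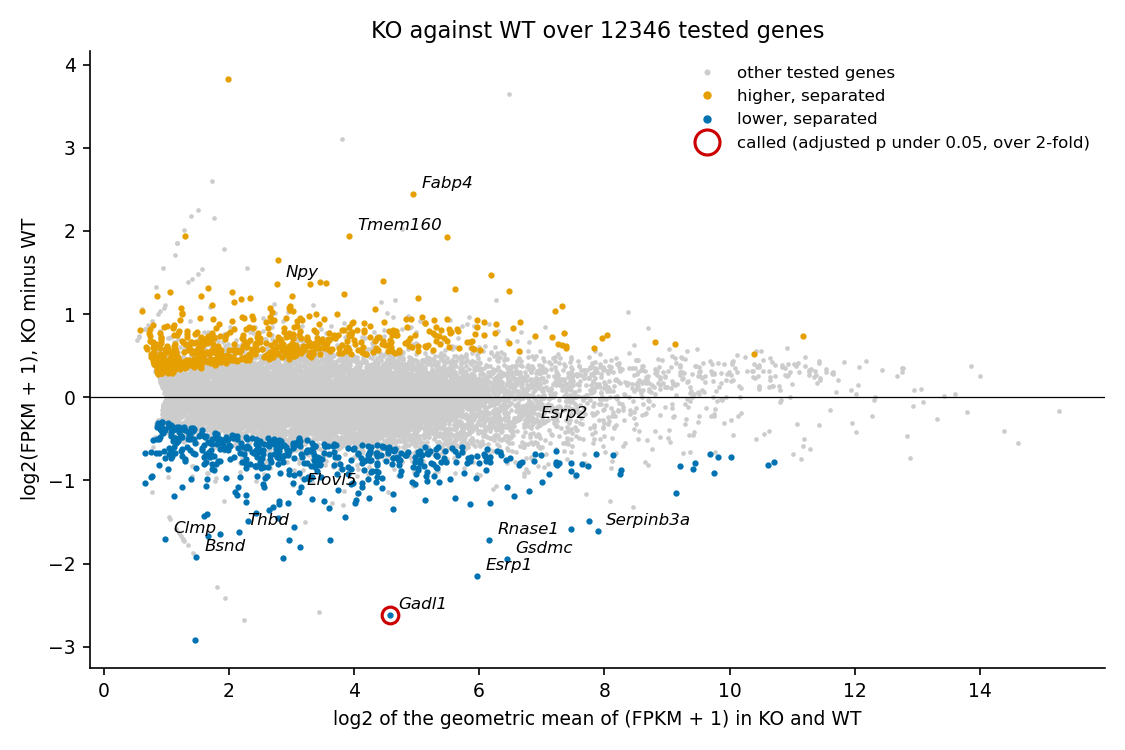
Each point is a tested gene, with the log2 of its mean level in KO and WT on the horizontal axis and the difference in log2(FPKM + 1) on the vertical axis. The 611 separated genes higher and the 524 lower in KO are coloured, and Gadl1, at -2.62, is the 1 called gene.

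A stricter view, added after the values were seen, asked for a gap of at least 1 on the log2 scale between the nearest KO and WT libraries. Such a gap was found for 17 genes lower in KO (0.138%) and 3 genes higher (0.0243%). Of the 17, 13 were protein-coding, and in 13 the KH and DKO libraries were also all below both WT libraries. Besides Gadl1, Esrp1, Bsnd, Clmp, Thbd and Elovl5, the protein-coding ones were Gsdmc, Serpinb3a, Rnase1, Ear5, Cish, Sprr2a1 and Ankrd55.

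Gsdmc, a gasdermin (the family of pore-forming proteins of cell death), was at 30.6, 45.7 and 55.1 FPKM in KO and at 143 and 197 FPKM in WT. Its KO mean was 25.8% of the WT mean (limma adjusted p = 0.414). Serpinb3a, an inhibitor of proteases, was at 99.4, 132 and 179 FPKM in KO and at 365 and 454 FPKM in WT (limma adjusted p = 0.581). In both genes the order of the KO libraries was the same, with KO replicate 3 nearest to WT but still under 60 FPKM for Gsdmc and under 180 FPKM for Serpinb3a. Rnase1, a secreted ribonuclease, was at 21.4, 48.0 and 49.2 FPKM in KO and at 114 and 134 FPKM in WT. Ear5, of the eosinophil-associated ribonuclease family, was at 3.37, 8.43 and 5.99 FPKM in KO and at 21.4 and 19.9 FPKM in WT. Both ribonuclease genes lie on chromosome 14, and neither passed the test (limma adjusted p = 0.805 and 0.737). Gsdmc, Serpinb3a and Ear5 have close paralogs in the mouse, between which reads can be divided.

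Cish, an inhibitor of cytokine receptor signalling, was at 5.57, 7.81 and 6.56 FPKM in KO and at 17.9 and 18.4 FPKM in WT (limma adjusted p = 0.754). Its relative Socs2 was at 1.29, 2.56 and 2.31 FPKM in KO against 5.48 and 5.25 FPKM in WT. Outside the gap rule, F3, tissue factor, which starts blood clotting, was at 66.2, 96.1 and 148 FPKM in KO against 309 and 285 FPKM in WT, and Tlr2, a receptor for bacterial lipoproteins, was at 1.98, 2.03 and 2.71 FPKM against 6.28 and 6.30 FPKM. In these 4 genes no KO library reached a WT library, although the limma adjusted p of the last 3 was 0.805. Among the 12 separated genes with the lowest differences were also Degs2, which makes the hydroxylated sphingolipids of the barrier (1.77, 3.22 and 6.74 FPKM in KO against 13.0 and 16.5 FPKM in WT), and Tchh, the trichohyalin of the inner root sheath (2.35, 1.70 and 5.57 FPKM against 6.73 and 20.1 FPKM). For Tchh the WT libraries themselves differed more than the nearest KO and WT libraries did.

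The long noncoding RNA Gm14010 was at 1.11, 1.16 and 0.889 FPKM in KO and at 5.01 and 5.84 FPKM in WT (limma adjusted p = 0.225), but at 7.57 and 3.81 FPKM in DKO. The noncoding Gm14005, whose annotated span on chromosome 2 contains Gm14010, so that reads can be shared, was at 2.73, 3.48 and 3.36 FPKM in KO and at 9.96 and 10.9 FPKM in WT. Krt6b, a keratin of wounded and stressed epidermis, was at 3.24, 3.11 and 2.87 FPKM in KO and at 6.87 and 12.2 FPKM in WT, and at 710 and 1593 FPKM in DKO. KO was thus on the low side of WT and DKO on the high side; the difference of KO from WT for Krt6b, -1.32 (SE 0.35), did not pass the test (limma adjusted p = 0.805). The small nucleolar RNAs SNORA70 and SNORD10 completed the low end, and such short RNAs are poorly measured in poly(A) libraries.

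By the same gap, 3 genes lay above WT, of which 1, Tmem160, was protein-coding. Tmem160, which encodes a small membrane protein, was at 24.1, 40.7 and 22.8 FPKM in KO and at 7.27 and 6.04 FPKM in WT, a ratio of means of 4.39 and a difference of 1.94 (SE 0.31, limma adjusted p = 0.241). It was called in 2 of 21 settings and was at 19.2 to 45.1 FPKM in the KH and DKO libraries. Fabp4, the fatty acid binding protein of adipocytes and capillary endothelium, was at 34.5, 109 and 69.3 FPKM in KO and at 6.66 and 17.8 FPKM in WT, a difference of 2.44 (SE 0.59, limma adjusted p = 0.805). The other adipocyte markers were nearly absent: the sum of the whole adipocyte list was 34.7, 110 and 69.5 FPKM in KO and 6.91 and 18.0 FPKM in WT, of which Fabp4 made up almost all.

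Npy, the precursor of neuropeptide Y, was at 10.6, 13.7 and 6.21 FPKM in KO and at 3.40 and 2.94 FPKM in WT. Ly6k, a GPI-anchored protein of the Ly6 family, was at 11.9, 12.5 and 19.3 FPKM in KO and at 3.41 and 6.90 FPKM in WT, and is a gene in which KO replicate 3 was farthest from WT. Lgals1, the secreted lectin galectin-1, was at 80.8, 108 and 43.4 FPKM in KO and at 38.0 and 21.6 FPKM in WT. For Lgals1 the nearest KO and WT libraries were 43.4 and 38.0 FPKM, closer than the WT libraries to each other. Bcl2l15, of the Bcl2 family of regulators of cell death, was at 8.91, 7.45 and 8.33 FPKM in KO and at 3.81 and 3.25 FPKM in WT (limma adjusted p = 0.431). Its KO libraries lay within 1.5 FPKM of each other. The 12 highest separated genes also held Snora24, listed at 0 in both WT libraries, Ifitm1, and 5 pseudogene or unnamed transcripts, among them Gm10080 and Rps15a-ps5, which can share reads with the genes they were copied from.

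Differentiation genes of the upper epidermis were compared as lists, described by their counts and by their median difference. Over all tested genes, 4.95% were separated higher and 4.24% lower and the median was -0.02, and the counts of the lists are to be read against these shares. Counts without KO replicate 3 are to be read against 12.6% higher and 12.7% lower, those without WT replicate 1 against 11.5% and 9.82%, and those without KO replicate 1 against 4.25% and 3.53%. Among the separated list members named below, Cldn7, Il33, Nr4a1, Col1a2, Slc45a2, Cd3e, Cd3d and Cd7 passed the filter through KO alone and Aldh1a1 and Klf9 through WT alone, which fixed their direction. No member of any list below was called. Of 36 genes of the granular and cornified layer, 11 were separated lower (30.6%, against 4.24% of all tested genes) and 0 higher, and the median difference was -0.61. The 11 were Flg2, Tchh, Tgm3, Tgm5, Cdsn, Scel, Klk7, Lce1c, Lce1d, Lce1e and Lce1f, which encode filaggrin 2, trichohyalin, cross-linking transglutaminases, corneodesmosin, sciellin, a desquamation protease and proteins of the cornified envelope. Tgm3 was at 26.2, 31.3 and 53.0 FPKM in KO and at 77.5 and 98.4 FPKM in WT. Cdsn was at 113, 246 and 355 FPKM in KO and at 377 and 414 FPKM in WT, with KO replicate 3 near the lower WT library. Klk7 was at 275, 541 and 771 FPKM in KO and at 942 and 829 FPKM in WT.

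The KO libraries differed within this list. Its median difference from the WT mean was -1.47 in KO replicate 1, -0.21 in KO replicate 2 and -0.04 in KO replicate 3. Without KO replicate 1 the separated lower genes of this list were 3 of 36 (3.53% of all genes) and the median was -0.17, without KO replicate 3 they were 21 of 36 (12.7% of all genes) with a median of -0.89, and without WT replicate 2 they were 18 of 36 (5.78% of all genes). The 16 spinous genes had a median of -0.34, with -0.92, -0.33 and 0.10 in the KO libraries. Of them, 1 was separated higher and 1 lower, and the lower ones were 7 without KO replicate 3 and 5 without WT replicate 1. Without KO replicate 1, 3 were higher and 0 lower, with a median of -0.07. Krt10, the most abundant spinous gene, was at 10815, 18916 and 35425 FPKM in KO and at 24844 and 32066 FPKM in WT, so that the groups overlapped. Barrier lipid enzymes showed the same order of libraries: their median was -0.41 over 31 genes and -1.13, -0.26 and 0.10 by library. Of these, Aloxe3, Acer1, Degs2 and Awat1 were separated lower and Alox12e higher. The lower genes of this list were 2 of 31 without KO replicate 1 (median -0.05, 3.53% of all genes) and 19 of 31 without KO replicate 3 (median -0.71, 12.7% of all genes). Aloxe3, a lipoxygenase that processes the linoleate of barrier ceramides, was at 37.0, 60.1 and 61.8 FPKM in KO and at 101 and 71.3 FPKM in WT.

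**Figure D4:**
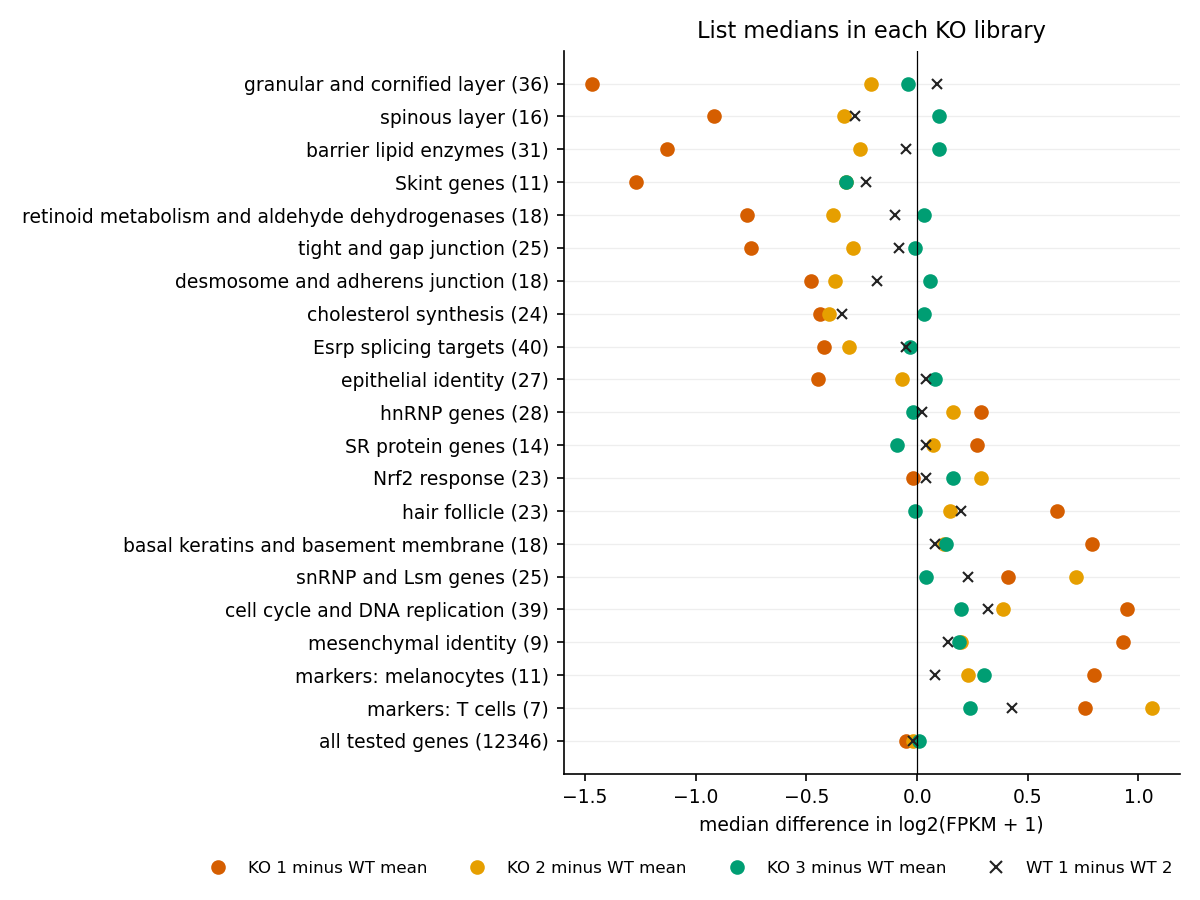
Median difference in log2(FPKM + 1) from the WT mean of each gene list in KO replicates 1, 2 and 3 (coloured points), with the median difference between the WT libraries (cross) and the number of tested genes in brackets. KO replicate 1 lies farthest from 0 in most lists, as at -1.47 for the granular and cornified layer. KO replicate 3 lies nearer to 0 than KO replicate 1 in most lists, but at -0.32 for Skint genes, 0.30 for melanocyte markers and 0.24 for T cell markers.

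Genes of dividing cells were on the opposite side. Of 39 cell cycle and DNA replication genes, 12 were separated higher (30.8%, against 4.95% of all tested genes) and 0 lower, with a median of 0.49 and library medians of 0.95, 0.39 and 0.20. They included Cdk1, the kinase of mitotic entry, at 87.0, 68.5 and 44.0 FPKM in KO and 41.1 and 31.1 FPKM in WT, and Top2a, the topoisomerase of replicating chromosomes, at 75.6, 68.3 and 40.3 FPKM against 39.7 and 29.3 FPKM. For both genes KO replicate 3 was within 3 FPKM of WT replicate 1. The median difference between the WT libraries for this list was 0.32, which is not directly comparable with the library medians, taken from the WT mean. The separated higher genes were 24 of 39 without KO replicate 3 (12.6% of all genes), 25 of 39 without WT replicate 1 (11.5% of all genes) and 6 of 39 without KO replicate 1 (4.25% of all genes).

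Among 18 basal keratins and basement membrane genes, Krt14 was separated higher and Krt15 lower, and the median was 0.34, with library medians of 0.79, 0.12 and 0.13. Without KO replicate 1 the median was 0.10 with 1 gene higher. The higher genes of this list were 6 of 18 without KO replicate 3, 5 of 18 without KO replicate 2 or WT replicate 1, and 4 of 18 with the length correction described below. Krt14, the keratin of the basal layer, was at 3692, 3202 and 2133 FPKM in KO and at 1805 and 1722 FPKM in WT. Krt15, a basal keratin enriched in stem cells of the follicle, was at 659, 676 and 618 FPKM in KO and at 990 and 1109 FPKM in WT. The KO libraries of Krt15 lay within 60 FPKM of each other, at 62.0% of the WT mean, and neither keratin passed the test (limma adjusted p = 0.805 for both). Krt5, the partner of Krt14, was at 3896, 2574 and 2423 FPKM in KO and at 2309 and 2343 FPKM in WT, also without overlap but under the 1.5-fold line. Hair follicle genes had 4 of 23 members separated higher (Lef1, Edar, Wnt10a and Msx2) and 0 lower, with a median of 0.25 and library medians of 0.63, 0.15 and -0.01. The higher genes of this list were 1 of 23 without KO replicate 1, 8 of 24 without KO replicate 3 and 8 of 23 without WT replicate 1. Wnt10a, a Wnt ligand of the developing follicle, was at 13.4, 11.8 and 6.86 FPKM in KO and at 5.35 and 5.10 FPKM in WT.

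Genes with exons known to be spliced by Esrp proteins were read for their total level. Of 40 Esrp splicing targets, 2 were separated lower and 0 higher, which is 5% against 4.24% lower over all tested genes, and the median was -0.23. Among them was Slc37a2, a sugar phosphate transporter, at 13.9, 23.1 and 36.2 FPKM in KO and 38.7 and 37.4 FPKM in WT, with KO replicate 3 just below both WT libraries. The library medians of this list were -0.42, -0.31 and -0.03, and without KO replicate 3 the separated lower targets were 14 of 40, against 12.7% of all genes. Without KO replicate 1 they were 0 of 40, and without WT replicate 1 they were 7 of 40 with 2 higher.

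Cell adhesion and cell identity were read from 4 further lists. Of 18 desmosome and adherens junction genes, 1 was separated, Cdh3, the P-cadherin of basal and follicle cells, at 28.9, 17.5 and 17.1 FPKM in KO and 15.0 and 13.1 FPKM in WT. Without KO replicate 3, 7 of the 18 were separated lower (12.7% of all genes), and without WT replicate 1, 6 of the 18 (9.82% of all genes). Among 25 tight and gap junction genes, Cgn, Marveld2 and Gjb5 were separated lower and Cldn7 higher, with a median of -0.39. The lower genes of this list were 0 of 23 without KO replicate 1, 13 of 25 without KO replicate 3 and 6 of 25 without WT replicate 1. Of 27 genes of epithelial identity, 1 was separated, again Cldn7, which was under 1.5 FPKM in every KO library and under 0.6 FPKM in both WT libraries. Without KO replicate 3, 2 of the 27 were separated higher and 4 lower, without WT replicate 1, 3 higher and 1 lower, and without WT replicate 2, 1 higher and 3 lower. The 9 genes of mesenchymal identity had a median of 0.60, with Vim, Col1a2, Sparc and Postn separated higher and Tnc lower. The library medians were 0.93, 0.20 and 0.19, and without KO replicate 1 the median was 0.17 with 2 of 8 genes higher, as were 2 of 9 without WT replicate 2. Postn, the matrix protein periostin, was at 343, 301 and 308 FPKM in KO and at 176 and 211 FPKM in WT, and Vim, the intermediate filament of mesenchymal and migrating cells, was at 65.2, 73.0 and 41.7 FPKM against 40.6 and 27.9 FPKM. The KO libraries of Postn lay within 50 FPKM of each other. The summed markers of dermal fibroblasts were 161, 95.0 and 96.4 FPKM in KO and 80.7 and 90.2 FPKM in WT, and their part in the mesenchymal list was not tested. Of 30 genes linked to cleft lip and palate, Wnt10a and Msx2 were separated higher and 0 lower, and the median was -0.08. Without KO replicate 3, 3 were separated higher and 3 lower, and without WT replicate 1, 5 higher and 3 lower.

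Other splicing regulators were measured as candidates to vary with Esrp1. Of 14 SR protein genes, 0 were separated in either direction and the median was 0.05. Of 28 hnRNP genes, Pcbp3 and Pcbp4 were separated higher and 0 lower, with a median of 0.13, and without KO replicate 3 the higher genes were 4 of 28. Pcbp4, a poly(C)-binding protein, was at 11.8, 9.73 and 6.16 FPKM in KO and 5.77 and 4.90 FPKM in WT. Of 19 tissue-restricted splicing regulators, Khdrbs3 and Msi1 were separated higher and Rbm20 lower, at a median of 0.01. When 1 library was left out, from 1 to 3 were higher and from 0 to 3 lower. Rbm20, a splicing factor best known from heart muscle, was at 1.19, 1.19 and 2.03 FPKM in KO and 2.28 and 2.44 FPKM in WT. Core snRNP and Lsm genes, short housekeeping genes of the spliceosome, had a median of 0.37 over 25 genes, with Snrpe, Lsm3 and Lsm5 separated higher. Their library medians were 0.41, 0.72 and 0.04, so KO replicate 2 was the highest here. The higher genes of this list were 1 of 24 without KO replicate 2, 15 of 25 without KO replicate 3 and 12 of 25 without WT replicate 1.

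Markers of T cells and of melanocytes were among the separated higher genes. Of 9 T cell markers in the table, 7 passed the filter, 3 of them (Cd3e, Cd3d and Cd7) through KO alone, so that these 3 had to be higher in KO and the number of markers higher is not read here. Cd3g, a subunit of the T cell receptor complex, was at 4.31, 11.8 and 4.48 FPKM in KO and at 3.08 and 1.41 FPKM in WT, and Lck, the kinase that signals from it, was at 4.95, 3.96 and 2.24 FPKM against 2.18 and 1.36 FPKM. In both genes KO replicate 3 was the KO library nearest to WT or within 0.2 FPKM of the nearest. Over the 7 markers the WT libraries differed from each other by a median of 0.43 on the log2 scale. KO replicate 3 differed from the WT mean by 0.24, which is not directly comparable with the distance between the WT libraries. Skint genes, a family of keratinocyte genes linked to the selection of epidermal T cells, were on the other side. Of 11, Skint5, Skint7, Skint8 and Skint9 were separated lower and 0 higher. The median was -0.62, with library medians of -1.27, -0.32 and -0.32. The lower genes of this list were 2 of 11 without KO replicate 1 (median -0.32) and 7 of 11 without KO replicate 2 (-0.81) or without KO replicate 3 (-0.92). Skint7 was at 11.1, 11 and 15.0 FPKM in KO and at 24.9 and 25.4 FPKM in WT, and Skint8 was at 3.71, 5.27 and 6.01 FPKM against 10.8 and 9.91 FPKM. No KO library reached a WT library in these 2 genes, and neither passed the test (limma adjusted p = 0.805 for both).

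Of 11 melanocyte markers, Pmel, Mlana, Dct, Sox10, Mitf and Slc45a2 were separated higher and 0 lower, and the median was 0.41. Without KO replicate 1 the higher genes were 4 of 11 with a median of 0.22. Dct, an enzyme of melanin synthesis, was at 39.0, 35.3 and 33.1 FPKM in KO and at 22.5 and 21.4 FPKM in WT. The 3 KO libraries were close, and Pmel, the matrix protein of melanosomes, showed the same, with 26.2, 22.6 and 21.9 FPKM against 14.5 and 13.1 FPKM. The summed melanocyte markers were 102, 91.5 and 80.6 FPKM in KO and 57.9 and 52.1 FPKM in WT.

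Metabolic and response genes were mixed. Of 23 Nrf2 response genes, Nqo1, Gsta3, Gsta4 and Gstm1 were separated higher and 0 lower, at a median of 0.10. Without KO replicate 3, 7 of the 23 were higher and 2 lower with a median of -0.02, and without WT replicate 2, 4 were higher and 2 lower. Nqo1, a quinone reductase, was at 3.36, 3.25 and 3.02 FPKM in KO and at 1.88 and 1.63 FPKM in WT, with KO libraries nearly equal. Of 18 genes of retinoid metabolism and aldehyde dehydrogenases, Aldh1a1, Rdh1, Cyp2b19 and Cyp2s1 were separated lower and 0 higher, and the lower genes were 9 of 18 without KO replicate 3. Cyp2b19, a cytochrome P450 of the granular keratinocyte, was at 121, 138 and 119 FPKM in KO and at 475 and 265 FPKM in WT, but at 54.5 and 896 FPKM in the KH libraries, which widened its error (difference -1.49, SE 0.91). Of 10 genes of glucocorticoid response and metallothioneins, Mt1 and Mt2 were separated higher and Fkbp5, Sgk1 and Klf9 lower. Fkbp5, an immunophilin induced by glucocorticoids, was at 21.8, 40.3 and 33.1 FPKM in KO and at 71.2 and 74.2 FPKM in WT (limma adjusted p = 0.805). Mt2, a zinc-binding metallothionein, was at 184, 141 and 89.3 FPKM in KO against 71.9 and 40.5 FPKM in WT. Of 21 genes of fatty acid synthesis and storage, Scd1 and Elovl5 were separated lower and Fabp4 higher, and the lower genes were 8 of 21 without KO replicate 3 and 6 of 21 without WT replicate 1. In cholesterol synthesis, Mvd and Hsd17b7 were separated lower among 24 genes, as were 9 of 24 without KO replicate 3 and 6 of 24 without WT replicate 1. Of 29 hypoxia and glycolysis genes, Adm and Vegfa were separated lower and Hk2 higher. Without KO replicate 3 or WT replicate 1, 1 was higher and 5 lower, whereas without KO replicate 2, 4 were higher and 1 lower, and without WT replicate 2, 3 were higher and 1 lower. Adm, the peptide hormone adrenomedullin, was at 1.59, 1.64 and 3.32 FPKM in KO and 6.02 and 6.76 FPKM in WT.

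Of 33 stress keratins, Sprr, Lce3 and S100 genes, 5 were separated higher (Krt12, S100a4, S100a9, S100a10 and Il33) and 4 lower (Krt6b, Sprr2a1, Sprr2a3 and Il1a), with a median of -0.07. When 1 library was left out, from 4 to 8 were higher and from 3 to 9 lower, and the median ran from -0.18 to 0.20. Of 27 immediate early and heat shock genes, Egr1 and Nr4a1 were separated higher and Egr2 and Hspa1b lower, with from 2 to 4 higher and from 0 to 4 lower when 1 library was left out. Fgf20 was the 1 separated gene, higher in KO, of 13 Fgf ligands and feedback regulators, Adam17 the 1, lower, of 14 EGF ligands and receptors, and Isg15 the 1, higher, of 8 interferon response genes. When 1 library was left out, the Fgf list had from 0 to 5 genes higher and from 0 to 2 lower, the EGF list from 0 to 2 higher and from 0 to 4 lower, and the interferon list from 0 to 2 higher and from 0 to 1 lower. Of 10 markers of Langerhans and other antigen presenting cells, 0 were separated; their median was 0.53 and the WT libraries differed by a median of 0.67. Without KO replicate 3, 7 of 11 of them were separated higher, and without WT replicate 1, 8 of 10.

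The KO libraries were also compared with one another. Among 12140 genes with a mean of at least 1 FPKM in KO, KO replicate 3 was at least 2-fold above both others in 63 and below both in 39, where these lay within 1.5-fold of each other in FPKM + 1; the same counts were 20 and 162 for KO replicate 1 and 64 and 41 for KO replicate 2. The 162 low genes of KO replicate 1 were the highest of these 6 counts. The protein-coding genes farthest above in KO replicate 3 were Ide, Dsc1 and Lipn. Dsc1, the desmosomal cadherin of the upper epidermis, was at 84.0, 71.7 and 295 FPKM in KO and at 190 and 389 FPKM in WT, so KO replicate 3 fell within the WT range. Ide, an insulin-degrading protease, was at 210, 226 and 843 FPKM in KO and at 370 and 355 FPKM in WT, above both. Lipn, a lipase of the late keratinocyte, was at 17.6, 21.8 and 77.8 FPKM in KO against 33.6 and 46.5 FPKM. Farthest below were the haemoglobin genes Hba-a1, at 123, 85.0 and 17.8 FPKM in KO against 121 and 15.6 FPKM in WT, and Hba-a2, and also Eif4ebp3, at 11.1, 31.0 and 2.60 FPKM against 15.9 and 1.26 FPKM. In these genes the value of KO replicate 3 lay nearer to WT replicate 2 than to the other KO libraries.

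Transcript length moved with the differences from WT, most in KO replicate 2. With genes cut into 5 classes of length, from the shortest to the longest, the median difference was 0.10, 0.05, -0.01, -0.08 and -0.13, and in KO replicate 2 alone it ran from 0.23 to -0.24. In KO replicate 1 it ran from 0.00 to -0.12. In KO replicate 3 it ran from 0.02 to -0.01, and between the WT libraries from 0.03 to -0.09. The separated higher genes numbered 153 in the shortest class and 53 in the longest, and the separated lower genes 63 and 171. With each library corrected for length by a loess curve, 667 genes were separated higher and 461 lower, and Gadl1 was again the 1 called gene. With that correction the snRNP and Lsm genes had a median of 0.32 and 2 of 25 separated higher, against 0.37 and 3 of 25 without it.

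**Figure D5:**
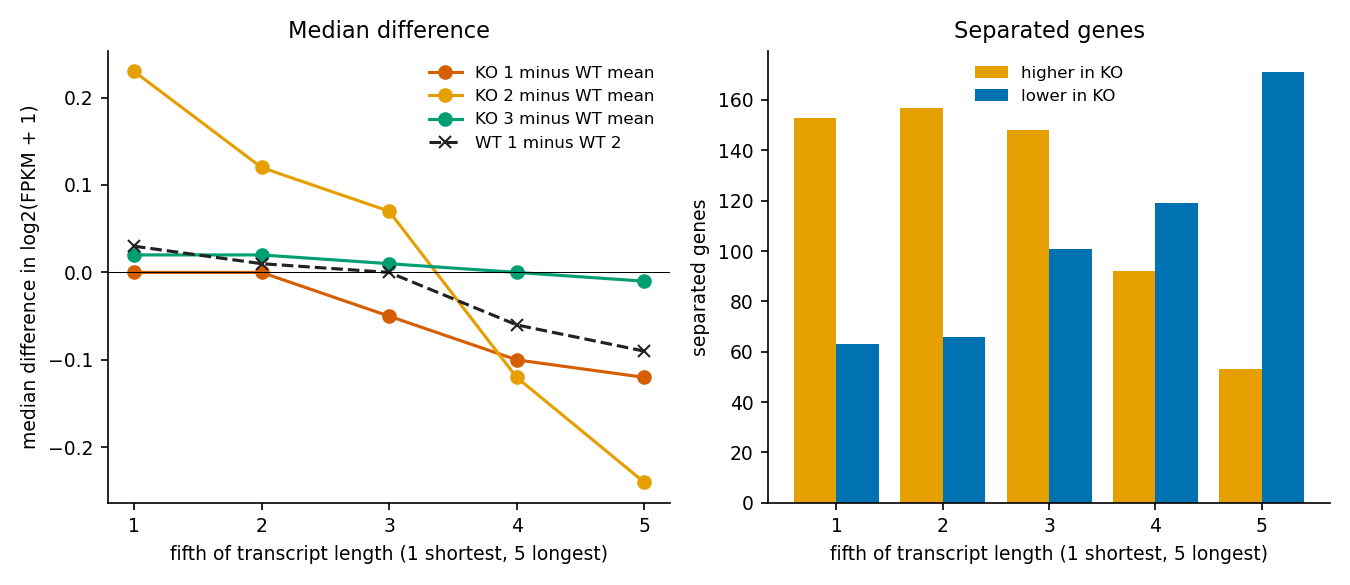
Left, median difference in log2(FPKM + 1) from the WT mean of each KO library, and between the WT libraries, by class of transcript length (1 shortest, 5 longest). Right, number of separated genes by class; the higher ones go from 153 in the shortest to 53 in the longest class and the lower ones from 63 to 171.

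Genes that flank Esrp1 travel with the targeted allele, so the tested genes within 10 Mb of it on chromosome 4 were taken apart. Of 55 such genes, 0 were called, 3 were separated higher (Fam92a, Decr1 and Gm11830) and 3 lower (Chd7, Plag1 and Ttpa). The groups did not overlap in 29.1% of the 55, against 25.3% on the rest of chromosome 4 and 25.2% of all tested genes, and the median difference was -0.01. Gm11830 passed the filter through KO alone. Fam92a, a membrane-binding protein of the primary cilium, was at 19.8, 21.5 and 13.3 FPKM in KO and at 9.29 and 10.2 FPKM in WT (difference 0.81, SE 0.25, limma adjusted p = 0.805). Chd7, a chromatin remodeller of the neural crest, was at 1.07, 1.66 and 1.97 FPKM in KO and at 2.70 and 3.32 FPKM in WT, and Ttpa, the vitamin E transfer protein, was at 1.60, 1.55 and 1.42 FPKM against 2.48 and 2.39 FPKM. Bsnd is on the same chromosome but at chr4:106483456-106492283, outside this window.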

How the data were processed

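The authors sequenced stranded poly(A) libraries, mapped the reads with TopHat 1.4.1 to mm10 and the Ensembl transcriptome, and deposited FPKM values per gene from Cuffdiff 2.2.0; its scaling options are not given in the sources used here. The FPKM values hold no read counts, and read totals per library were not used here, so no counting interval is given. The values summed to 734747, 1130713 and 886703 in KO replicates 1 to 3 and to 895103 and 867380 in WT replicates 1 and 2. Over all 9 libraries the sums ran from 713318 to 1130713, and 11851 to 12228 genes per library reached 1 FPKM. Labels gave each column its genotype. Genes with a mean of at least 1 FPKM in KO or WT were fitted on log2(FPKM + 1) in limma 3.58.1 (run under R 4.3.3); the model held a mean for each of 4 genotypes across the 9 libraries (5 residual degrees of freedom), with eBayes trend and no covariate, and p-values were adjusted by the Benjamini-Hochberg method over all 12346 genes. The calls were tested on simulated data, in which a false call occurred also with no gene changed. Positions, names, lengths and sequences came from GENCODE M21, which held 95.1% of the genes, and 14521 genes shared a locus with another.

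Genes named were Esrp1, Esrp2, called genes, the 12 highest and 12 lowest separated genes with a mean of at least 5 FPKM, separated or most abundant members of lists, genes in which KO replicate 3 stood apart, and separated genes near Esrp1; any other gene named was picked with its values in view. The members and lists were chosen with earlier results of these data known. Nothing in the labels says which embryos were littermates, and the p-values measure the spread between these libraries. 1 gene that is counted in the text is not named or reported here.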

Additional observations from a re-analysis of the deposited data

How the results depend on the processing

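The number of called genes, 1 in the analysis reported, was 1 with a pseudocount of 0.1, median ratio scaling, length correction or no fold threshold; 2 with eBayes without trend or quantile normalization; 5 with no filter, a filter at 0.1 FPKM, TPM, or only KO and WT libraries in the fit; and 10 with arrayWeights, and it ran from 0 to 12 when 1 library was left out (12 without WT replicate 2, among them Xist and Y-linked genes). Deviations from the group means correlated at 0.036 and -0.437 between same-numbered KO and WT libraries. With 2 WT libraries the WT deviations are equal and opposite, so the correlations cannot decide whether replicate numbers pair the libraries. With the replicate number as a block, 0 genes were called by limma, with 1352 at an unadjusted p below 0.05. Separated genes numbered 171 higher and 127 lower with a 2-fold line, and ran from 522 to 1571 higher and from 433 to 1585 lower when a KO or WT library was left out. They rose to 1391 higher and 1134 lower of 21848 genes with no filter, and to 1140 and 875 of 16897 with the filter at 0.1 FPKM. TPM, median ratio scaling and length correction kept both within 1.5-fold.

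Esrp1 stayed between -2.28 and -2.01 (-2.28 to -2.02 when 1 library was left out), and passed the test at -2.15 with only KO and WT libraries (limma adjusted p = 0.0259), with arrayWeights (0.0379) and without KH replicate 1 (0.0124) or 2 (0.0112). Esrp2 stayed between -0.52 and -0.23 and never passed. Of the other genes named, 5 changed sign when 1 library was left out: Ide ran from -0.73 to 0.27, Lipn from -0.98 to 0.06, Hba-a1 from -1.06 to 1.81, Hba-a2 from -1.07 to 1.81 and Eif4ebp3 from -0.60 to 2.30. The cause of these changes was not tested. FPKM without counts limits what can be said of genes near 1 FPKM, and 2 WT libraries limit all tests.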
